A study of Mus musculus with 18 samples.

Results

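The genes described here are those of 2 metallothioneins, Mt1 and Mt2, of the metal sensor Mtf1 and of 3 zinc transporters, Slc30a1, Slc39a10 and Slc39a14, taken by their gene names from a table of 55487 genes. All 6 genes were found and all 6 passed the filter on low counts, as did 15381 genes in all. RNA was sequenced from wild-type mouse embryonic fibroblasts (MEFs) in 6 groups of 3 libraries. MEFs were kept in Scm, the complete medium with S-FBS, a fetal bovine serum in which cells were sensitive to ferroptosis, or in Rcm, the complete medium with R-FBS, a serum in which they were resistant (ferroptosis is an iron-dependent death by lipid peroxidation). In S-Rcm 12 h and S-Rcm 24 h, MEFs from Scm had been in Rcm for 12 h or 24 h, and in R-Scm 12 h and R-Scm 24 h, MEFs from Rcm had been in Scm for 12 h or 24 h. The groups shared the cells and genotype and differed in serum and in time since the exchange. The metal content of the sera was not analysed here, and Scm and Rcm had no library with a change to the same medium, so that the act of changing medium cannot be told apart from the change of serum.

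Metallothioneins are small, cysteine-rich proteins that bind zinc and copper, and in fibroblasts their mRNAs are known to follow the amount of free zinc in the cell. MTF1 is a zinc-finger transcription factor that binds metal response elements (MREs) once zinc has occupied it, and Mt1, Mt2 and Slc30a1 are among its best known targets. Slc30a1 encodes ZnT1, which moves zinc out of the cell, whereas Slc39a10 and Slc39a14 encode ZIP10 and ZIP14, which bring zinc into the cytosol, and ZIP14 also carries iron and manganese. Mt1 and Mt2 also respond to glucocorticoids, and ZIP14 to interleukin-6.

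The metallothionein genes lie next to each other. In GENCODE M21 on GRCm38, Mt2 (ENSMUSG00000031762) spans chr8:94172664-94173568 and Mt1 (ENSMUSG00000031765) spans chr8:94179082-94180327, both on the plus strand with 5513 bases between them. Mtf1 (ENSMUSG00000028890) spans chr4:124802104-124849800 and Slc30a1 (ENSMUSG00000037434) chr1:191906767-191913247, both on the plus strand. Slc39a10 (ENSMUSG00000025986) spans chr1:46807544-46892852 and Slc39a14 (ENSMUSG00000022094) chr14:70303469-70351425, both on the minus strand. All are protein-coding genes. Mt1 and Mt2 transcripts were 79.2% identical over 192 aligned bases. The exons of Mt2 share 432 bases with the antisense gene Gm45774, those of Mtf1 share 721 bases with 1110065P20Rik and those of Slc30a1 share 468 bases with 1700034H15Rik. Whether strand was used in counting is not given in the sources used here, so that reads of Mt2, Mtf1 and Slc30a1 cannot be separated from reads of these partners. Reads over the shared bases may also have been left out of the counts, which would lower the levels of these genes. Slc39a10 has a stretch of 348 bases that is 94.3% identical to the pseudogene Gm6801.

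The upstream sequences of the metallothionein genes and of Slc30a1 are shown because they hold the letters that define an MRE, the element through which the metal sensor acts. RefSeq promoters on GRCm38.p6 matched 5 of the 6 genes by symbol (not Slc39a14), and the 250 bases before the start site were searched on both strands for TGCACNC and TGCGCNC. Capitals mark the matches, none of which overlapped another. The lines give Mt2 (chr8:94172368-94172617), Mt1 (chr8:94178839-94179088) and Slc30a1 (chr1:191906531-191906780), all on the plus strand and 5′ to 3′.
Mt2: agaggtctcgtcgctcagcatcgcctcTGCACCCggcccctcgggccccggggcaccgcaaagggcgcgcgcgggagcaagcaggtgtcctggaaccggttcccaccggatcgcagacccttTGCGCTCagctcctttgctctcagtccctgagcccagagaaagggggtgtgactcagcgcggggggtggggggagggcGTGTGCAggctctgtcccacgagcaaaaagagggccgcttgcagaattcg
Mt1: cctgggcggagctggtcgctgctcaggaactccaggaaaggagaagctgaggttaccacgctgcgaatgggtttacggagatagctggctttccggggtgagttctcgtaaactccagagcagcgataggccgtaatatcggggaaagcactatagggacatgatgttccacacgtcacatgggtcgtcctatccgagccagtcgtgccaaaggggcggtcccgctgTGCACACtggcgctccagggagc
Slc30a1: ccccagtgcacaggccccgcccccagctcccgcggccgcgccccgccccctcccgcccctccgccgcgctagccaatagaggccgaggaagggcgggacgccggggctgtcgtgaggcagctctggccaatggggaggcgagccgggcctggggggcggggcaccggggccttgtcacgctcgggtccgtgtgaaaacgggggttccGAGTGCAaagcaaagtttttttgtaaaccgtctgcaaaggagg
Mt2 held 3 matches, beginning at positions -223 and -128 from the start site and, on the minus strand, at -50. Mt1 held 1 match, at -23, and Slc30a1 held 1 match, on the minus strand at -43. The promoters of Mtf1 and Slc39a10, which has 2 promoters in the table, held 0 matches. Of 32851 promoters of the same length, 21.4% held at least 1 match, 5.17% at least 2 and 1.26% at least 3. The windows end at RefSeq start sites, which can differ from the GENCODE spans given above. The Mtf1 window (chr4:124802299-124802548) lies inside its span, and a window of Slc39a10 (chr1:46925777-46926026) lies outside it. Bases beyond the windows and other start sites were not searched, so that these counts do not give the number of MREs of a gene. A match describes the letters of these windows and is not a measured binding site.

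Libraries held 14534906 to 20313715 counts and replicates differed beyond counting error (chi-square divided by its degrees of freedom, 9.33 to 41.1 over replicate pairs). The study's methods describe independent replicates for its culture experiments in general, and the labels do not say it for these libraries, so that p-values measure the spread between these libraries, which may be technical. All 8 fibroblast markers were measured, with a summed level of 8053 to 12532 CPM, while the summed immune markers stood at 10.2 to 19.5 CPM, the epithelial markers at 6.20 to 19.6 CPM, the endothelial markers at 0.139 to 3.25 CPM and the skeletal muscle markers at 0 to 0.422 CPM (CPM, counts relative to a library size corrected by edgeR's TMM factor). Of these lists, Adgre1, Cd3e, Myod1 and Myog had 0 counts in every library. Past the filter on low counts were 2 of 5 immune, 2 of 5 epithelial, 2 of 4 endothelial and 0 of 4 skeletal muscle markers. The epithelial marker Krt19 had 5.99 to 18.9 CPM. R-Scm 12 h replicate 3 stood apart. It held the highest of the 18 values for 14.05% of the genes tested, against 2.11% to 8.50% in the other libraries, although its correlation with its group (mean r = 0.981) lay within the range of all libraries (0.975 to 0.986). R-Scm 24 h replicate 1 had the lowest correlation with its group (mean r = 0.975). Without it, the genes past both thresholds rose from 58 to 501 in R-Scm 24 h against Rcm, from 10 to 125 in S-Rcm 24 h against R-Scm 24 h and from 211 to 761 in the difference between the directions of exchange at 24 h, while 0 of the 6 genes passed in each of these with or without it.

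Per kb of the principal transcript, Mt1 was the most abundant of the 6 mRNAs, with group means of 222 to 351 CPM per kb, followed by Mt2 with 94.4 to 210 CPM per kb. The transporters and the sensor stood far lower. Group means ran from 11.3 to 12.7 CPM per kb for Slc39a14, from 10.3 to 12.96 for Slc39a10, from 3.49 to 3.88 for Mtf1 and from 1.94 to 2.87 for Slc30a1. Relative to their level, the metallothioneins and Slc30a1 had group means that differed most between groups, and Mtf1, Slc39a10 and Slc39a14 stayed within narrower ranges. For Mt2 the highest and the lowest mean were those of R-Scm 12 h and R-Scm 24 h, both in Scm.

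**Figure D1:**
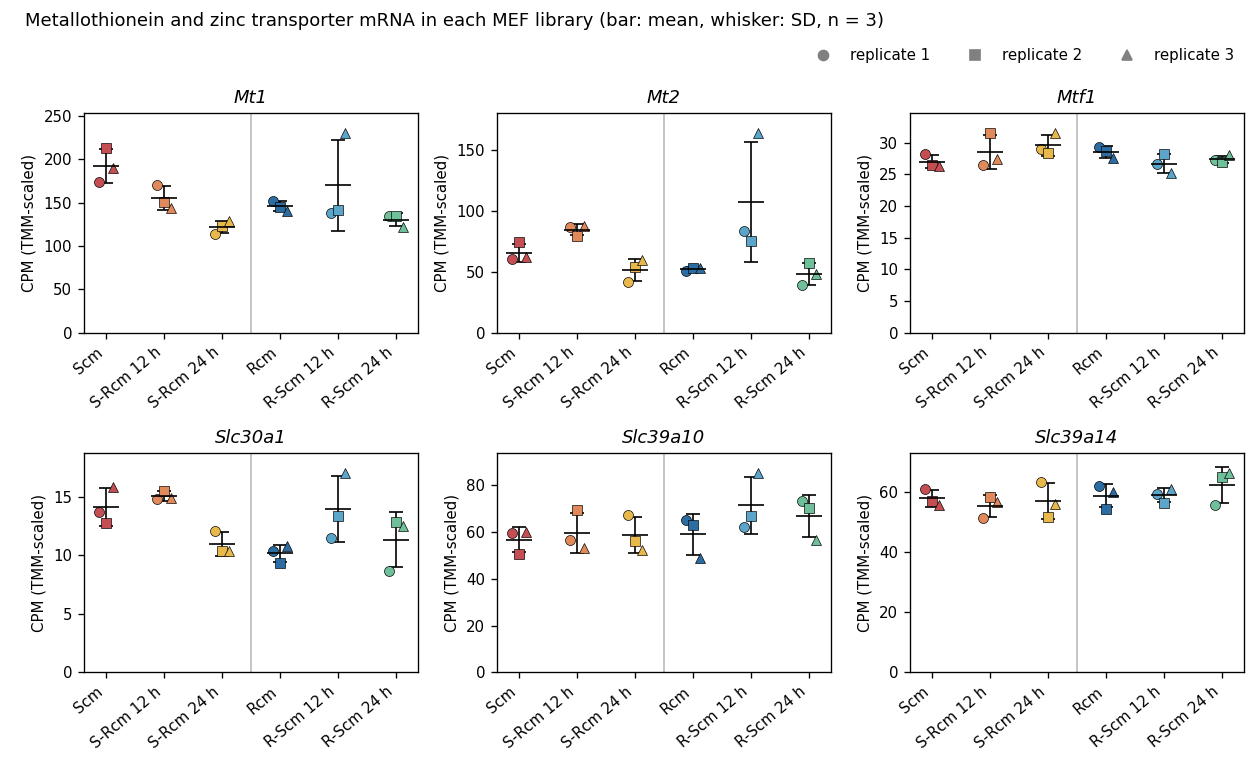
CPM (TMM-scaled, linear axes from 0) of the 6 genes in each of the 18 libraries, with marker shapes for replicates 1 to 3, a bar for the group mean and whiskers for the SD (n = 3). Mt2 was higher in the libraries taken 12 h after either exchange than in the libraries of the starting medium, and R-Scm 12 h replicate 3 (163.6 CPM) stood above every other Mt2 value.

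Of the 6 genes, Mt2 had the largest log2 fold change in any of the 11 comparisons (-1.15, given below with its test). It had 60.3, 74.3 and 62.0 CPM in Scm, and 50.6, 53.2 and 53.1 CPM in Rcm. At 12 h after the change to Scm it reached 83.3, 74.96 and 163.6 CPM, and at 12 h after the change to Rcm it reached 86.8, 79.4 and 87.2 CPM. The libraries of each 12 h group thus lay above all libraries of the medium they had left, and the highest value by far was that of R-Scm 12 h replicate 3. At 24 h the values were back at 39.0, 57.1 and 48.6 CPM in R-Scm and 41.7, 53.9 and 59.4 CPM in S-Rcm, within or below the range of Scm and Rcm together. In bulk samples such a level cannot tell a change in every cell from a change in the number of cells that express the gene.

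Mt2 rose 2.05-fold from Rcm to R-Scm 12 h (log2 fold change 1.04, SE 0.23, adjusted p = 0.0153, edgeR's quasi-likelihood test with Benjamini-Hochberg adjustment over 15381 genes, as for every adjusted p below). It was the only one of the 6 genes to pass both thresholds, a log2 fold change of more than 0.58 in size with an adjusted p below 0.05, in this comparison, in which 2.74% of all genes passed them. Without R-Scm 12 h replicate 3 the log2 fold change was 0.60 and the adjusted p was 0.0537, and the call was also lost without each library of Rcm (adjusted p up to 0.0653) and in a fit of these groups alone (adjusted p = 0.139). With DESeq2 in place of edgeR it was kept. Mt2 then fell between R-Scm 12 h and R-Scm 24 h, where 0.774% of all genes passed both thresholds, with a log2 fold change of -1.15 (SE 0.23, adjusted p = 0.0217), which was -0.72 (adjusted p = 0.0506) without R-Scm 12 h replicate 3. This call was also lost without R-Scm 24 h replicate 3 (-1.15, adjusted p = 0.0882) and in a fit of these groups alone (adjusted p = 0.42). Both comparisons share the libraries of R-Scm 12 h.

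In the opposite exchange the changes of Mt2 had the same signs and did not pass the test. The log2 fold change was 0.37 (95% confidence interval -0.12 to 0.85, adjusted p = 0.507) from Scm to S-Rcm 12 h, and -0.71 (-1.19 to -0.23, adjusted p = 0.279) from S-Rcm 12 h to S-Rcm 24 h, although the libraries did not overlap in either. The effect of the exchange on Mt2 at 12 h differed between the directions by -0.67 on the log2 scale (adjusted p = 0.349), which was -0.23 without R-Scm 12 h replicate 3, so that no difference was shown. At 24 h Mt2 differed from its starting medium by -0.12 in R-Scm (adjusted p = 0.918) and by -0.34 in S-Rcm (adjusted p = 0.787).

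Mt1 was highest in Scm, at 173.8, 213 and 190.4 CPM, and lower in Rcm, at 152, 145 and 140.6 CPM, with no overlap between the groups. S-Rcm 12 h held 170.2, 151 and 144 CPM, and S-Rcm 24 h held 114, 123.3 and 128.5 CPM. The libraries of S-Rcm 24 h were the 3 lowest after the exchange from Scm, and all lay below every library of Scm, Rcm and S-Rcm 12 h. R-Scm 12 h held 138, 142 and 230.01 CPM, the last again in replicate 3, and R-Scm 24 h held 135, 134 and 122 CPM. The libraries of MEFs moved into Scm for 24 h all lay below those of MEFs kept in Scm.

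From Scm to S-Rcm 24 h Mt1 was 1.58-fold lower (log2 fold change -0.66, SE 0.15, unadjusted p = 4.353e-04), and the adjusted p of 0.0739 missed the threshold. This call depended on the fit. It was made by edgeR on these groups alone (adjusted p = 0.0232), by DESeq2 on the 18 libraries (adjusted p = 0.00484) and by DESeq2 on these groups alone (adjusted p = 7.27e-07). Mt1 in Rcm differed from Scm by -0.40 (adjusted p = 0.195), and Mt1 in R-Scm 24 h differed from Scm by -0.56 (95% confidence interval -0.88 to -0.25, adjusted p = 0.121), a comparison in the same serum. The exchange from Rcm to Scm gave 0.22 at 12 h (adjusted p = 0.499), which was -0.062 without R-Scm 12 h replicate 3, and -0.17 at 24 h (adjusted p = 0.773). The difference between the directions was -0.53 at 12 h (adjusted p = 0.241), which was -0.25 without that library, and -0.49 at 24 h (adjusted p = 0.334).

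In order of the mean, Mt1 ran from Scm (192 ± 19.7 CPM, SD, n = 3) through R-Scm 12 h (169.8 ± 52.2), S-Rcm 12 h (155 ± 13.7), Rcm (146 ± 5.88) and R-Scm 24 h (130.2 ± 7.42) to S-Rcm 24 h (122 ± 7.43). Neighbours in this order overlapped except Rcm and R-Scm 24 h. Mt2 ran from R-Scm 12 h (107 ± 48.9 CPM) and S-Rcm 12 h (84.5 ± 4.38) through Scm (65.6 ± 7.63), Rcm (52.3 ± 1.49) and S-Rcm 24 h (51.7 ± 9.07) to R-Scm 24 h (48.2 ± 9.07). Here S-Rcm 12 h and Scm, and Scm and Rcm, did not overlap, and the other neighbours did.

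The share of Mt2 among the metallothionein counts differed between the times. Mt2 made up 25.8%, 25.9% and 24.6% of the counts of Mt1 and Mt2 together in Scm and 24.9%, 26.8% and 27.4% in Rcm. At 12 h the share was 33.8%, 34.4% and 37.8% in S-Rcm and 37.7%, 34.6% and 41.6% in R-Scm. All 6 libraries of the 12 h groups lay above all 12 other libraries, in both directions of exchange and in every replicate. At 24 h the share was 26.8%, 30.4% and 31.6% in S-Rcm and 22.4%, 29.9% and 28.6% in R-Scm.

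The share of Mt2 was higher by 11.6 percentage points in R-Scm 12 h than in Rcm and by 9.93 in S-Rcm 12 h than in Scm. It was lower at 24 h than at 12 h with a difference of -11.0 points in R-Scm and -5.72 in S-Rcm. S-Rcm 24 h stayed 4.204 points above Scm. Each of these 5 differences had p = 0.1 in a two-sided exact permutation test, the smallest p that 3 libraries against 3 allow, so that none could pass 0.05. The 6 other comparisons of the share had overlapping libraries. The ratio is taken within a library and does not depend on scaling, and it was chosen after the values were seen. Reads of the antisense gene Gm45774 could enter Mt2 and not Mt1, or reads over the shared bases could be missing from Mt2. Their part in the ratio was not tested.

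**Figure D2:**
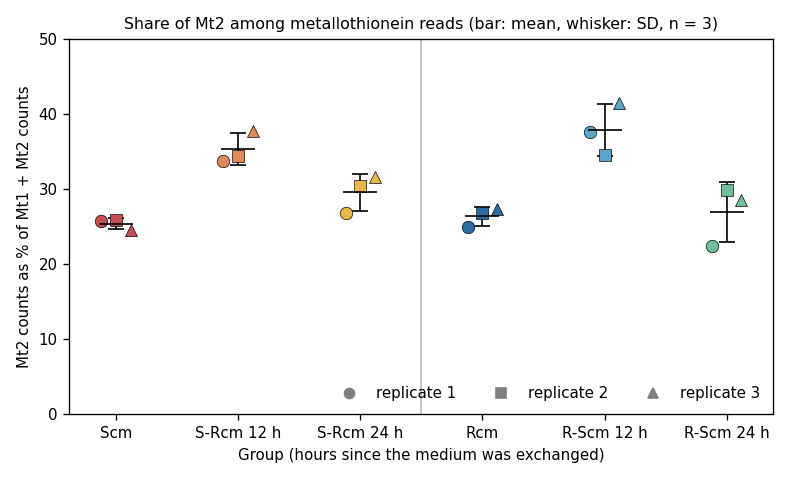
Mt2 counts as a percentage of the summed counts of Mt1 and Mt2 in each library (axis from 0), by group, with a bar for the mean and whiskers for the SD (n = 3). The 6 libraries taken 12 h after an exchange lay between 33.8% and 41.6% and the other 12 between 22.4% and 31.6%.

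Slc30a1, the zinc exporter regulated by MTF1, had 13.7, 12.8 and 15.9 CPM in Scm and 10.4, 9.38 and 10.8 CPM in Rcm, without overlap. R-Scm 12 h held 11.5, 13.3 and 17.0 CPM, all above Rcm, and R-Scm 24 h held 8.66, 12.9 and 12.5 CPM. S-Rcm 12 h held 14.8, 15.5 and 14.9 CPM and S-Rcm 24 h held 12.1, 10.4 and 10.4 CPM, all below the libraries of Scm and of S-Rcm 12 h. With 141 to 278 counts in a library, it was the least deeply counted of the 6 genes.

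None of the changes of Slc30a1 passed the test. The log2 fold change was -0.47 from Scm to Rcm (95% confidence interval -0.82 to -0.12, adjusted p = 0.156), 0.45 from Rcm to R-Scm 12 h (0.11 to 0.80, adjusted p = 0.138), -0.36 from Scm to S-Rcm 24 h (-0.71 to -0.02, adjusted p = 0.583) and -0.46 from S-Rcm 12 h to S-Rcm 24 h (-0.80 to -0.11, adjusted p = 0.357). These intervals leave out 0 before adjustment over all genes. Without R-Scm 12 h replicate 3 the change from Rcm to R-Scm 12 h was 0.29 (adjusted p = 0.496). In order of the mean, Slc30a1 ran from S-Rcm 12 h (15.1 ± 0.403 CPM), Scm (14.1 ± 1.60) and R-Scm 12 h (13.95 ± 2.83) to R-Scm 24 h (11.3 ± 2.33), S-Rcm 24 h (10.96 ± 0.995) and Rcm (10.2 ± 0.712), and every pair of neighbours overlapped. The difference between the directions of exchange was -0.36 at 12 h (adjusted p = 0.525), which was -0.19 without that library, and -0.52 at 24 h (adjusted p = 0.36).

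Mtf1, the sensor itself, ranged from 25.2 to 31.5 CPM over the 18 libraries, with group means of 26.7 to 29.6 CPM. Slc39a14 ranged from 51.5 to 66.6 CPM, with group means of 55.6 to 62.4 CPM. For both genes, every confidence interval in the 11 comparisons between groups lay between -0.33 and 0.32 on the log2 scale, inside the threshold of 0.58. Slc39a10, a zinc importer, had group means of 56.6 CPM in Scm, 58.9 in Rcm, 59.5 in S-Rcm 12 h, 58.5 in S-Rcm 24 h, 71.2 ± 12.3 in R-Scm 12 h and, at 24 h, 66.6 ± 8.95 in R-Scm. Its values in R-Scm 12 h were 61.9, 66.6 and 85.2 CPM, the last in replicate 3, and those in Rcm were 65.1, 62.8 and 48.9 CPM, which overlapped. The log2 fold change was 0.27 (95% confidence interval -0.05 to 0.60, adjusted p = 0.381), or 0.13 without replicate 3 of R-Scm 12 h, and over the 11 comparisons the intervals of Slc39a10 ran from -0.58 to 0.60.

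**Figure D3:**
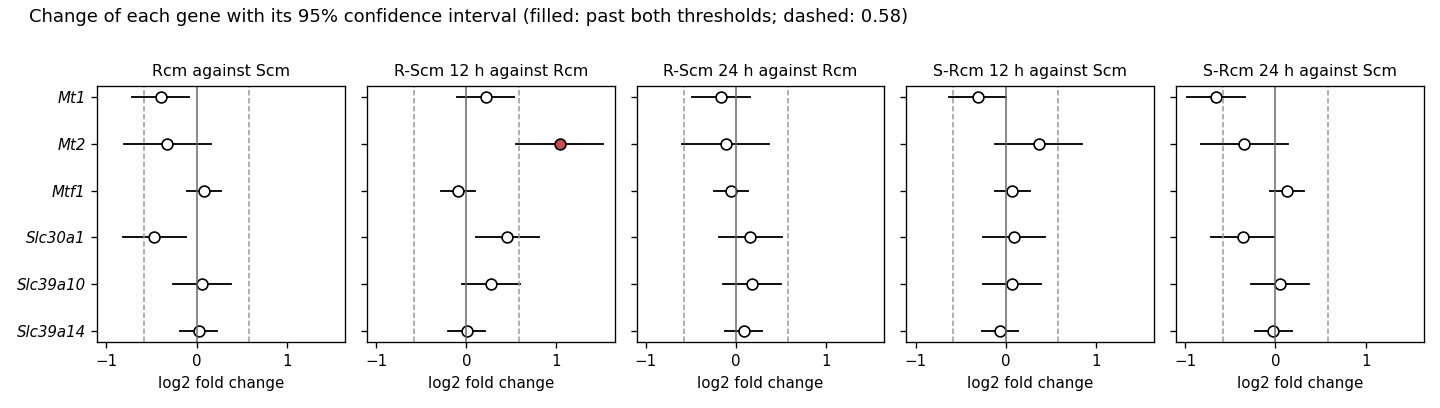
Log2 fold change (circles) and 95% confidence interval (lines) of the 6 genes between Rcm and Scm and between each exchange group and the medium it had left, from edgeR on the 18 libraries. Filled circles passed both thresholds, dashed lines mark 0.58 on either side of 0, and the only filled circle is Mt2 in R-Scm 12 h against Rcm (1.04).

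Counted over the 6 genes, 0 passed both thresholds between Rcm and Scm by edgeR, where 2.3% of all genes did. By unadjusted p under 0.05 there were 2 (Mt1 and Slc30a1, both lower in Rcm), DESeq2 on the 18 libraries called 0, and libraries did not overlap for 3 of the 6 against 23.9% of all genes. The 1 gene past the thresholds from Rcm to R-Scm 12 h was Mt2. There were 2 by unadjusted p (Mt2 and Slc30a1, both higher in R-Scm 12 h). Of the 6 genes, 2 had libraries apart against 23.4% of all genes. From Rcm to R-Scm 24 h there were 0 (0.377% of all genes), also 0 by unadjusted p and 0 by DESeq2, and 1 with libraries apart (11.2% of all genes). From Scm to S-Rcm 12 h there were 0 (0.858% of all genes), 0 by unadjusted p and 0 by DESeq2, with 2 apart (26.4% of all genes). From Scm to S-Rcm 24 h there were 0 (0.338% of all genes), 2 by unadjusted p, 1 by DESeq2, and 4 of 6 apart (19.5% of all genes), Mt1, Mt2 and Slc30a1 lower and Mtf1 higher. Over the 6 genes, the median change on the log2 scale was -0.15, 0.25, 0.012, 0.073 and -0.18 in these comparisons in turn, beside -0.0077 to 0.019 for all genes. Of the 15381 genes tested, 2498, 2706, 1582, 2197 and 1247 had an unadjusted p under 0.05 in the same comparisons in turn.

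Where exchange groups were compared with each other or with the medium they had entered, few differences were found. At 12 h, S-Rcm against R-Scm gave 0 of 6 past both thresholds (2.63% of all genes), 0 by unadjusted p and 0 by DESeq2, and no gene had libraries apart (27.8% of all genes). At 24 h the same comparison gave 0 (0.065% of all genes), with 0 by unadjusted p and 0 by DESeq2, and Mtf1 alone had libraries apart (10.4% of all genes). R-Scm 24 h against Scm gave 0 (0.592% of all genes), with 1 by unadjusted p, Mt1, and 0 by DESeq2, and Mt1 and Mt2 had libraries apart (14.9% of all genes). S-Rcm 24 h against Rcm gave 0 (0.221% of all genes), with 0 by unadjusted p and 0 by DESeq2, and Mt1 alone had libraries apart (12.8% of all genes). From S-Rcm 12 h to S-Rcm 24 h there were 0 (0.156% of all genes), while Mt1, Mt2 and Slc30a1, all lower at 24 h, made 3 by unadjusted p and were the 3 with libraries apart (17.2% of all genes), and DESeq2 on the 18 libraries called 0. Between R-Scm 12 h and R-Scm 24 h, where Mt2 fell, Mt1 and Mt2 made 2 by unadjusted p and had libraries apart (15.2% of all genes). Of the 15381 genes tested, 3293, 1276, 1547, 1151, 1424 and 2092 had an unadjusted p under 0.05 in these comparisons in turn. The test of the difference between the directions called 0 of 6 at 12 h (2.03% of all genes) and 0 at 24 h (1.37%), with 1 and 2 by unadjusted p, and 0 in both by DESeq2. Among all genes, 2262 at 12 h and 1942 at 24 h had an unadjusted p under 0.05 in it.

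The zinc transporter families were measured in the same libraries, and the counts given here include Slc30a1, Slc39a10 and Slc39a14. Of the 10 ZnT genes, which move zinc out of the cytosol, 6 passed the filter on low counts, and of the 14 ZIP genes 10 did. None of these 16 genes passed both thresholds in any of the 11 comparisons by edgeR, and DESeq2 on the 18 libraries called 1 ZnT and 0 ZIP genes. In at least 1 of the comparisons, 3 of the ZnT genes and 4 of the ZIP genes had an unadjusted p under 0.05. In a single comparison 1151 to 3293 of the 15381 genes tested had such a p. The share of all genes over the 11 was not computed, so that no excess is read from these counts. The median log2 fold change of a family lay between -0.025 and 0.033 for ZnT genes and between -0.022 and 0.081 for ZIP genes in the comparisons with the starting medium and of Rcm with Scm. The largest differences were those of Slc39a4, an importer of dietary zinc at a mean of only 0.616 CPM, with a log2 fold change of 1.30 from Scm to S-Rcm 12 h (its lowest adjusted p over the comparisons was 0.122), of Slc30a4, the gene that DESeq2 called, with -0.91 in the same comparison (lowest adjusted p 0.09), and of Slc39a9 with -0.85 in S-Rcm 24 h against Rcm (lowest adjusted p 0.473). Slc30a2 and Slc30a8 had 0 counts in every library.

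Slc39a1, which encodes the plasma membrane importer ZIP1, had the highest level per kb of both families, 60.6 CPM per kb over the 18 libraries. Slc39a7 (39.2), Slc39a13 (36.2) and Slc39a6 (31.5) followed among ZIP genes, and Slc39a14 (11.9) and Slc39a10 (11.3) came lower. Among ZnT genes Slc30a5 was highest with 31.2 CPM per kb, and Slc30a1, at 2.40, stood near Slc30a4, at 2.18.

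**Figure D4:**
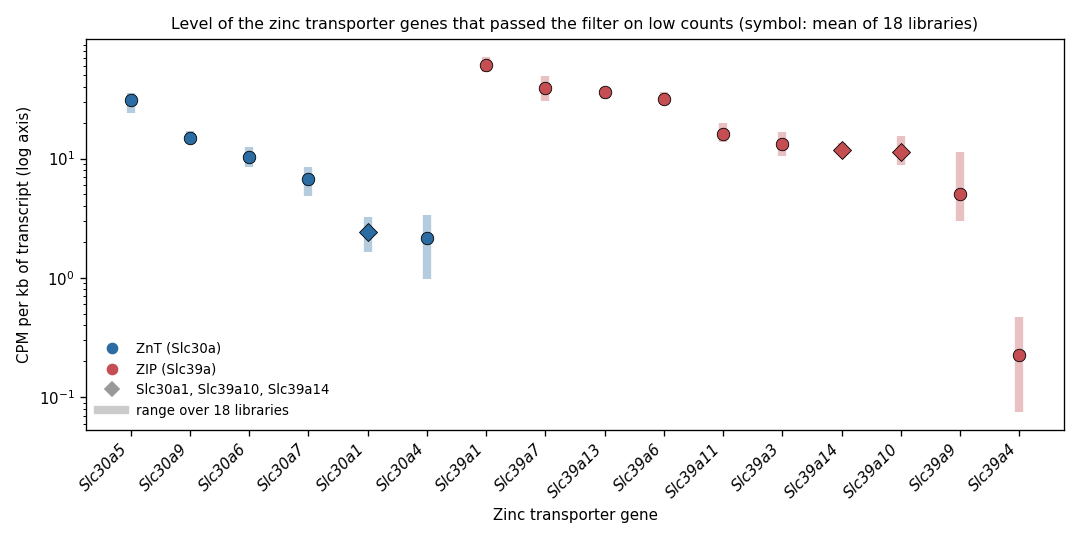
CPM per kb of principal transcript (log axis) of the 16 zinc transporter genes that passed the filter, with a symbol for the mean and a pale bar for the range of the 18 libraries. Slc39a1 (60.6) was highest, Slc39a4 (0.224) lowest, and Slc30a1 (2.40) stood below every ZIP gene shown except Slc39a4.

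Of 7 other genes linked to MTF1, 6 passed the filter, and Selenow, Slc40a1, Ndrg1 and Csrp1 passed both thresholds in at least 1 of the 11 comparisons by edgeR. In single comparisons 0.065% to 2.74% of all genes passed them. The share of all genes that passed in at least 1 of the 11 was not computed, so that no excess is read from this count. DESeq2 made 11 calls on 5 genes of this list on the 18 libraries, and 13 on the compared groups alone. Both added Selenoh in R-Scm 24 h against Rcm and in S-Rcm 24 h against R-Scm 24 h, and Selenow in S-Rcm 24 h against Scm. No excess is read from these calls either. Selenow, a selenoprotein gene whose mRNA is known to depend on selenium, had 52.5, 86.5 and 61.7 CPM in Scm and 145, 165.6 and 178 CPM in Rcm, and rose by 1.29 on the log2 scale in Rcm (adjusted p = 4.35e-04). In the change to Scm it fell, with -1.14 at 12 h (adjusted p = 0.00102) and -1.06 at 24 h (adjusted p = 0.00803), the latter lost without R-Scm 24 h replicate 3 (adjusted p = 0.0645) and in a fit of these groups alone. Slc40a1, which encodes the iron exporter ferroportin, had 6 to 16 counts in the libraries of Scm and 39 to 51 counts in those of S-Rcm 12 h and rose by 1.92 (adjusted p = 0.0308), which was no longer called in 5 of the 6 fits that left out a library of these groups. Ndrg1, a stress-responsive gene, fell from 101.5, 101.98 and 91.7 CPM in Scm to 50.3, 47.4 and 47.9 CPM in S-Rcm 12 h (log2 fold change -1.02, adjusted p = 1.91e-05). Between 12 h and 24 h in the same medium, Csrp1 rose by 0.83 in S-Rcm (adjusted p = 0.00182) and Ndrg1 by 0.63 in R-Scm (adjusted p = 0.00396), the latter lost without R-Scm 24 h replicate 1 and in a fit of these groups alone. Of 9 genes of copper handling 8 passed the filter, and 0 passed the thresholds in any of the 11 comparisons by edgeR or DESeq2. By unadjusted p under 0.05 there were 0 to 4 in a comparison. The most were in S-Rcm 12 h against R-Scm 12 h, where 3293 of the 15381 genes tested had such a p. Whether this count exceeds that of all genes was not tested.

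Metallothioneins and Slc39a14 also answer to glucocorticoids, cytokines and stress, and genes of these responses were counted beside them. The calls below stand beside the shares of all genes given above for each comparison, and no excess is read from them. Of 10 glucocorticoid-responsive genes 9 passed the filter. From Rcm to R-Scm 12 h, Sgk1, a kinase gene of this response, rose by 0.64 (adjusted p = 0.0269) and Per1, a clock gene, fell by 0.59 on the log2 scale (adjusted p = 0.0261). Sgk1 had 298, 302 and 303 CPM in Rcm and 383, 388 and 631 CPM in R-Scm 12 h, the highest in replicate 3 as for Mt2. Without that library the log2 fold change of Sgk1 was 0.36 and the calls of Sgk1 and Per1 were lost, as they were without Rcm replicate 1 or 3 (for Sgk1, also without Rcm replicate 2). Per1 also fell from Scm to S-Rcm 12 h (-0.63, adjusted p = 0.0376) and rose from R-Scm 12 h to R-Scm 24 h (0.65, adjusted p = 0.0351), and Sgk1 was lower in S-Rcm 12 h than in R-Scm 12 h (-0.59, adjusted p = 0.0392). Each of these 3 calls was lost without R-Scm 12 h replicate 3 or, for Per1 in S-Rcm 12 h, without any 1 library of its groups. Of 12 genes of the IL-6 and STAT3 response 9 passed the filter. In the 11 comparisons 0 passed the thresholds by edgeR and 0 by DESeq2 on the 18 libraries. By unadjusted p under 0.05 there were 0 to 6 in a comparison. The most were between Rcm and Scm, where 2498 of the 15381 genes tested had such a p. Whether this count exceeds that of all genes was not tested. DESeq2 on the compared groups alone made 4 calls. They were Osmr and Junb in Rcm against Scm, and Osmr in S-Rcm 12 h against Scm and against R-Scm 12 h. Of 10 heat shock and metal stress genes 9 passed the filter, and Cryab, a small heat shock protein gene, rose by 1.26 in Rcm against Scm (adjusted p = 8.60e-04) and by 0.87 in S-Rcm 24 h against Scm (adjusted p = 0.0433, lost without any 1 library of these groups).

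Across the 18 libraries the 2 metallothioneins moved together, with Pearson's r of 0.671 between their log2 CPM, and 0.823 once group means were taken out. Slc30a1 followed Mt2 (r = 0.719) and Mt1 (r = 0.569), with 0.501 and 0.335 once group means were taken out. Mtf1 did not follow its targets (r = -0.53 with Mt1 and -0.41 with Mt2). These are descriptions over libraries that share groups and, for R-Scm 12 h replicate 3, a library that stood apart.

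The genes most like the mean log2 CPM of Mt1 and Mt2, among 11014 genes with at least 5 CPM, were Gm45774 (r = 0.914 over 18 libraries), Tmem150a (0.839), Hgsnat (0.821), Ctsk (0.7998), Riox2 (0.794), Cmtm3 (0.793), Alg1 (0.773) and Il1rl1 (0.771). Gm45774 is the antisense gene that shares exons with Mt2, and it stood at 11.3 ± 5.09 CPM in R-Scm 12 h and 10.3 ± 2.78 CPM in S-Rcm 12 h against 4.86 to 8.04 CPM, in group means, elsewhere. For Slc30a1 the closest were Nomo1 (r = 0.790), Txnrd1 (0.788), which encodes thioredoxin reductase, and Igfbp3 (0.787). For Slc39a10 they were Gm14295 (0.906), Polr3f (0.905) and Dop1a (0.904), for Slc39a14 they were Tmem248 (0.741), Kpnb1 (0.740) and Wapl (0.739), and for Mtf1 they were Gigyf2 (0.741), Top2a (0.722) and Tecpr2 (0.716).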

How the data were processed

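The authors extracted total RNA from MEFs with the RNeasy mini kit, made paired-end mRNA libraries with a kit of ABclonal and sequenced them on a NovaSeq instrument, and HISAT2 placed the reads on GRCm38. They deposited raw counts, whole numbers of reads per gene without normalization, for 55487 genes in 18 libraries. The counting tool is not given in the sources used here. Alignment and counting fix how reads of antisense partners and of the related Mt1 and Mt2 were assigned and were not repeated.

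Each column was assigned to its group by its title. Genes were filtered with edgeR's filterByExpr, which kept 15381 and removed 40106, counts were scaled with TMM factors (0.963 to 1.03), and all 18 libraries entered 1 robust quasi-likelihood fit (12 residual degrees of freedom, biological coefficient of variation 0.173). Thresholds, as in the study's use of DESeq2, were a log2 fold change of more than 0.58 in size and a p below 0.05 after Benjamini-Hochberg adjustment over the 15381 genes. The 11 comparisons were Rcm against Scm, each exchange group against the medium it had left, S-Rcm against R-Scm at each time, each 24 h group against the medium it had entered, and 24 h against 12 h, with a test of the difference between the directions at each time. Comparisons that use the same group share its libraries. Log2 CPM for correlations used a prior count of 2. The scripts were tested on simulated data. Transcript lengths and positions came from GENCODE M21, and similar sequences from blastn.

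The genes named are the 6 genes, at most 4 genes per list and comparison past both thresholds with the largest change, and the 8 genes most like the metallothioneins and 3 most like each other gene by Pearson's r. Slc39a4, Slc30a4, Slc39a9 and the levels of the transporter families were added after the values were seen. The 6 genes and the lists were chosen with earlier results of these data known. Models were run in R 4.3.3 (edgeR 4.0.16, DESeq2 1.42.0), sequences were compared with blastn 2.17.0, and plots were drawn with matplotlib 3.10.9 under Python 3.11.15. Reads carry no molecular identifiers, so that limits from counts cover counting error only.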

Additional observations from a re-analysis of the deposited data

Results flagged for a closer look

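The test of a difference between the opposite exchanges called 0 of the 6 genes, beside 2.03% of all genes at 12 h and 1.37% at 24 h. Of the genes linked to MTF1 it called 3 of 6 at each time, of the glucocorticoid-responsive genes 1 of 9 at 12 h, and of the heat shock and metal stress genes 1 of 9 at 24 h. The value given is the log2 fold change of Scm-to-Rcm minus that of Rcm-to-Scm, each against the medium left, with edgeR's adjusted p. At 12 h it was 3.23 for Slc40a1, the ferroportin gene (adjusted p = 0.00687), 1.62 for Selenow (adjusted p = 0.00128), -0.87 for Sgk1 (adjusted p = 0.047) and -0.66 for Ndrg1 (adjusted p = 0.00956). At 24 h it was 1.77 for Selenow (adjusted p = 9.91e-04), 1.58 for Selenoh (adjusted p = 0.0107), 1.31 for Cryab (adjusted p = 0.0123) and -0.77 for Ndrg1 (adjusted p = 0.00419). The values of Slc40a1, Selenow, Selenoh, Cryab and Ndrg1 stayed past both thresholds in each of the 12 fits that left out 1 library, whereas that of Sgk1 was lost in 10 of the 12 and was -0.60 without R-Scm 12 h replicate 3. Slc40a1 rests on 6 to 51 counts in a library.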

How the results depend on the processing

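Over the 78 log2 fold changes of the 6 genes, 1265 of 1320 alternative values kept their direction and their side of the thresholds, 10 lost a call, 4 gained one and 41 turned sign. No call turned sign. All lost calls were those of Mt2. From Rcm to R-Scm 12 h its call was lost in 4 of 6 fits that left out 1 library and in 2 of 10 other alternatives. From R-Scm 12 h to R-Scm 24 h it was lost in 2 of 6 and in 2 of 10. The other log2 fold changes had no call to lose. The alternatives with no fold threshold and with an adjusted p under 0.01 kept the fit, so that only a call could change there. The number of the 6 genes past both thresholds went from 1 to 0 in R-Scm 12 h against Rcm and in R-Scm 24 h against R-Scm 12 h with an adjusted p under 0.01 and with edgeR on the compared groups alone, and ranged from 0 to 1 over the fits that left out 1 library. It went from 0 to 1 in S-Rcm 24 h against Scm (Mt1) with edgeR on the compared groups alone, DESeq2 on the 18 libraries and DESeq2 on the compared groups alone, and from 0 to 1 in S-Rcm 24 h against S-Rcm 12 h (Mt2) with DESeq2 on the compared groups alone. The number of list genes past both thresholds in the comparisons of the media and with the medium left went from 6 to 3 with an adjusted p under 0.01 and to 11 with DESeq2 on the compared groups alone, and ranged from 5 to 10 over the fits that left out 1 library, with 10 without R-Scm 24 h replicate 1. The cause of these changes was not tested. Per1 in R-Scm 12 h against Rcm was also lost without the filter and with DESeq2.

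With DESeq2, Slc39a10 in S-Rcm 24 h against Rcm was 6.482e-05 on the 18 libraries and 0.0014 on the compared groups alone. Over the fits that left out 1 library, the log2 fold changes that turned sign ran for Slc39a10 from -0.021 to 0.16 and Slc39a14 from -0.017 to 0.072 in Rcm against Scm, for Mt1 from -0.062 to 0.35 and Slc39a14 from -0.047 to 0.042 in R-Scm 12 h against Rcm, for Mt2 from -0.25 to 0.015 in R-Scm 24 h against Rcm, and for Mtf1 from -0.011 to 0.13 and Slc39a10 from -0.057 to 0.15 in S-Rcm 12 h against Scm. Those at 24 h or between the exchanges ran for Slc39a10 from -0.061 to 0.12 and Slc39a14 from -0.10 to 0.043 in S-Rcm 24 h against Scm, for Mt1 from -0.26 to 0.15, Mt2 from -0.55 to 0.093 and Slc30a1 from -0.011 to 0.28 in S-Rcm 12 h against R-Scm 12 h, for Mt2 from -0.033 to 0.24 and Slc30a1 from -0.21 to 0.049 in S-Rcm 24 h against R-Scm 24 h, and for Mtf1 from -0.0012 to 0.051 in R-Scm 24 h against Scm. The rest ran for Mt2 from -0.13 to 0.12, Slc39a10 from -0.12 to 0.070 and Slc39a14 from -0.12 to 0.023 in S-Rcm 24 h against Rcm, for Mtf1 from -0.0031 to 0.078 and Slc39a10 from -0.19 to 0.049 in R-Scm 24 h against R-Scm 12 h, and for Slc39a10 from -0.13 to 0.098 and Slc39a14 from -0.042 to 0.11 in S-Rcm 24 h against S-Rcm 12 h.

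Replicates with the same number were not taken as pairs, since the correlations of their deviations from the group means lay between -0.196 and 0.346 and 7 of 18 libraries correlated best with a library of their own number. With the replicate number as a block, Mt2 was still called in R-Scm 12 h against Rcm (adjusted p = 0.0141), and 1 of the 6 genes passed both thresholds there, as without the block. Among the list genes, the block ended the calls of Cryab in S-Rcm 24 h against Scm and of Sgk1 in S-Rcm 12 h against R-Scm 12 h and in the difference between the directions at 12 h. These numbers are those of the sample titles. In S-Rcm 24 h, R-Scm 12 h and R-Scm 24 h the count table numbers the same libraries 1, 3 and 4, and a block by those numbers was not run. Slc30a1 had 141 to 278 counts in a library and Slc40a1 6 to 51, which limits the precision of their values.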
